A study of Mus musculus with 1617 samples.

Results

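Whole brain macrophages of adult mice were compared with those of mouse embryos at E16.5, cell by cell. The comparison took the cells whose source name gave whole brain and either age, 347 of the 1617 cells in the data, of which 63.7% were adult and 36.3% were E16.5 cells; the E16.5 cells are the 65 and 61 cells on either side of a limit given below, and the rest are adult. At both ages the sort kept CD45+ F4/80+ CD11b+ Ly6C- cells, which were captured on Fluidigm C1 chips and sequenced with single reads; the source label calls them microglia. Neither group carried a genotype, treatment, strain, sex or animal in the labels, and the adult age was given only as adult. Since no animal, litter or preparation was named, each age was 1 sample, so no test was run and cells were not treated as replicates. Other groups, E12.5 whole brain cells and 66 hippocampus, 99 thalamus and 95 visual cortex cells of adults, are set beside the results as single samples. Values were TPM, transcript levels scaled for transcript length and to a fixed total per cell, which keep no record of read depth.

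Microglia are the macrophages of the brain parenchyma. They arise from yolk sac progenitors, enter the embryonic brain, divide there, and later take on a profile that includes the purine receptor P2ry12, the membrane protein Tmem119 and the transcription factor Sall1. A gate on CD45, F4/80 and CD11b also takes in border-associated macrophages, which live in the meninges, the choroid plexus and around vessels and carry Mrc1, Lyve1, F13a1 and Pf4.

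The number of genes at or above 1 TPM had a median of 3659 per adult cell and of 4857.5 per E16.5 cell. At least 2 of 9 microglial markers reached 100 TPM in 96.8% of adult cells and in 88.1% of E16.5 cells. At least 2 of 10 border macrophage markers did so in 7 adult cells (3.17%) and in 72 E16.5 cells (57.1%). Their summed level had a median of 54.8 TPM in adult cells (0 to 15039 TPM) and of 1648 TPM in E16.5 cells (4.04 to 39304 TPM). Among markers of other cell types, 1 adult cell held 2 or more neutrophil and 2 or more monocyte markers at 100 TPM and 1 adult cell held 2 or more neural progenitor markers at that level. No cell of either age held 2 markers of B cells, T cells, mast cells, red cells, neurons, mural cells or fibroblasts at 100 TPM. In 42 adult and 16 E16.5 cells, Xist, which is transcribed from the inactive X chromosome of females, and Y-linked genes were both at 10 TPM or more, and whether these held RNA of more than 1 cell was not tested. The sample titles number the cells, and all 42 of these adult cells lay in an unbroken run of numbers, called the long title run here, which held every adult cell but 29. All 73 adult cells with Xist at 10 TPM or more lay in that run, and of the other 29 cells 21 had Y-linked genes at that level and 0 had Xist, so a comparison with these 29 cells also changes this make-up.

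Genes entered the comparison with a mean of at least 5 TPM at either age, which 12490 of 43280 genes had; they are called measured. A gene was called when mean TPM plus 1 TPM differed at least 2-fold between the ages and the difference of mean log2(TPM + 1) had the same sign and was 0.5 or more. By this rule 649 measured genes (5.20%) were higher and 1982 (15.9%) were lower in the adult. Differences below are log2 ratios of mean TPM, adult over E16.5; their median over all measured genes was -0.09, and that of the differences of mean log2(TPM + 1) was -0.30. Where a pair of values is given without ages, E16.5 comes first. Of the called genes, 24.7% were higher in the adult. Rescaling divided the adult values by the median ratio of 1855 widely detected genes (log2 of 0.32) and left E16.5 values unchanged. This moved the median of all genes to -0.45, with 3.38% of measured genes higher and 21.7% lower. Of the called genes 13.5% were then higher. Among cells with 3500 to 5000 genes, 52 at E16.5 and 55.2% of the adult ones, 10.1% of measured genes were higher and 15.3% lower, so 39.7% of the called genes were higher. With only the 29 adult cells outside the long title run, 41.8% of the genes called higher and 61.9% of those called lower over all cells were called again. Among measured genes 8.32% were higher and 20.95% lower with these 29 cells. Leaving out the 5% highest cells of each gene and age made 4.2% of measured genes higher and 28.2% lower. The balance of higher and lower genes thus moved with the scaling, the set of adult cells, the highest cells and the number of genes per cell. Values below are over all cells unless one of these settings is named. Counts of list members are to be read beside the shares of all measured genes in the same setting.

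Genes of border-associated macrophages were much lower in the adult. Of 22 measured genes of this list, 18 were lower in the adult and none higher, with a median difference of -4.82. Mrc1, the mannose receptor, had a lowest, median and highest value over cells of 0.21, 191.7 and 9107 TPM at E16.5 and of 0, 0 and 1839 TPM in the adult. Its mean was 1552 TPM at E16.5 and 16.96 TPM in the adult, a difference of -6.44, and in 2.68% of all pairs of an adult and an E16.5 cell the adult value was the higher, ties split evenly. Pf4, a platelet-type chemokine, averaged 4294 TPM at E16.5 and 39.8 TPM in the adult, where 98.5% of the summed Pf4 came from 1 cell. Dab2, an endocytic adaptor, averaged 1107 and 16.9 TPM, a difference of -5.95. Folr2, which binds folate, averaged 219.9 TPM at E16.5 and was listed at 0 in each adult cell. Ms4a4a, a membrane protein of macrophages, reached 1.85 TPM in its highest adult cell and averaged 688.8 TPM at E16.5. A mean over cells does not tell fewer positive cells from less RNA per cell, so counts of cells follow.

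At E16.5 these genes split the cells. F13a1, the A chain of coagulation factor XIII, the hyaluronan receptor Lyve1 and the membrane protein Ms4a7 were each under 100 TPM in 65 of the E16.5 cells (51.6%) and in all adult cells, where a count of 0 outside this range allows a share of up to 1.36%. The highest of the 3 genes was under 10 TPM in 56 E16.5 cells and at 1000 TPM or more in 50, with 11 cells between 10 and 200 TPM. No adult cell exceeded 39.2 TPM in any of the 3. Cells below 100 TPM in all 3 are called the low range here; this is a range cut on 3 genes and not a cell type, and neither these genes nor the rest of their list are read as results inside it. E16.5 cells in the low range held a median of 4681 genes and the other 61 a median of 5191. Just inside the limit lay 3 E16.5 cells with a highest value of 50 to 100 TPM, and just outside it 2 cells of 100 to 200 TPM.

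**Figure D1:**
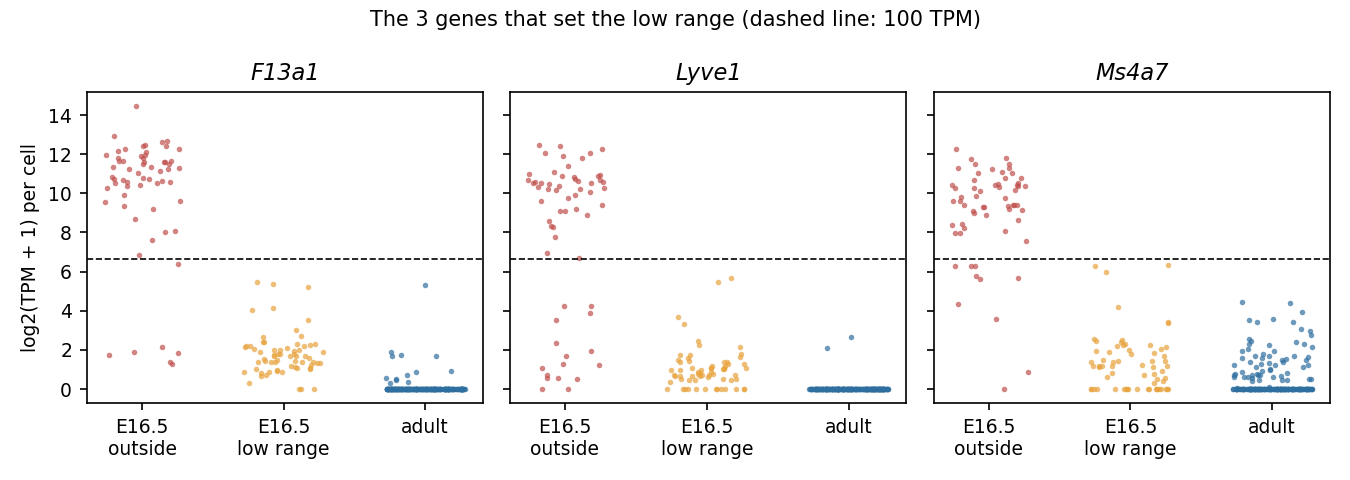
Values of F13a1, Lyve1 and Ms4a7 in single cells, as log2(TPM + 1), for the 61 E16.5 cells outside the low range, the 65 inside it and the adult cells; the dashed line marks 100 TPM and side-to-side scatter has no meaning. The E16.5 cells lie mostly well above or well below the line, and all adult cells lie below it.

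Against low range cells alone, 560 of 12257 measured genes (4.57%) were higher and 1774 (14.5%) lower in the adult. Called in the same direction in both comparisons were 443 of the 649 higher genes and 1349 of the 1982 lower genes, and none was called in opposite directions. The 2 comparisons share their adult cells and the low range cells, so their likeness is no separate evidence. Values below are over all E16.5 cells unless the low range is named. Counts of list members in the low range are to be read beside its 4.57% higher and 14.5% lower.

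Genes of the homeostatic microglial list were higher in the adult as a group. Of 24 measured members, 14 were higher and none lower, with a median difference of 1.35, beside the 5.20% of measured genes that were higher. Cst3, the gene of cystatin C, an inhibitor of cysteine proteases, had a lowest, median and highest value of 17.7, 2463.3 and 11555 TPM at E16.5 and of 142.5, 35810 and 139794 TPM in the adult. The adult value was the higher in 94.7% of cell pairs, so the ages overlapped little. P2ry12, the receptor by which microglia sense ADP, ran from 0 through a median of 246.6 to 9161 TPM at E16.5 and from 11.7 through 4352 to 23949 TPM in the adult. Its mean was 1330 TPM at E16.5 and 4881 TPM in the adult, a difference of 1.88, with the adult value higher in 80.5% of pairs. Sparc, a matrix-binding glycoprotein, averaged 1091 and 3322 TPM and reached 100 TPM in 43.7% of E16.5 and 93.2% of adult cells. Gpr34, a lysophospholipid receptor, averaged 484.1 and 2059 TPM, and Tmem119 148.3 and 658.2 TPM.

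Other microglial genes differed by less than 2-fold in mean level. Fcrls, an Fc receptor-like protein, averaged 2941.1 TPM at E16.5 and 3230.1 TPM in the adult, and Cx3cr1, the fractalkine receptor, 1065 and 1835 TPM. Csf1r, the receptor on which microglial survival depends, averaged 783.1 and 973.3 TPM. C1qb, a chain of complement C1q, averaged 3707 and 5307 TPM. None of these 4 genes was called. Sall1 averaged 85.2 TPM at E16.5 and 88.5 TPM in the adult, a difference of 0.05.

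Against low range E16.5 cells the homeostatic group was closer to its adult level, with 7 genes higher, none lower and a median of 0.72. The E16.5 mean of Sparc was 2034 TPM inside the low range and 86.4 TPM outside it. Sparc was within 2-fold of its adult mean in the low range, with a difference of 0.71, as were the lectin Siglech (0.72), the secreted protein Olfml3 (0.82) and P2ry13, another ADP receptor (0.54). P2ry12 (1.07), Gpr34 (1.54), Tmem119 (1.26), Trem2 (1.23) and Cst3 (3.24) stayed more than 2-fold higher in the adult. Sall1 averaged 164.2 TPM in low range cells and 0.97 TPM in the other E16.5 cells, and its difference in the low range was -0.88, which was not called. Apart from Sall1, the low range differences of the genes named here ran from 0.54 for P2ry13 to 3.24 for Cst3. Which of them count as near the adult mean depends on the 2-fold limit.

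**Figure D2:**
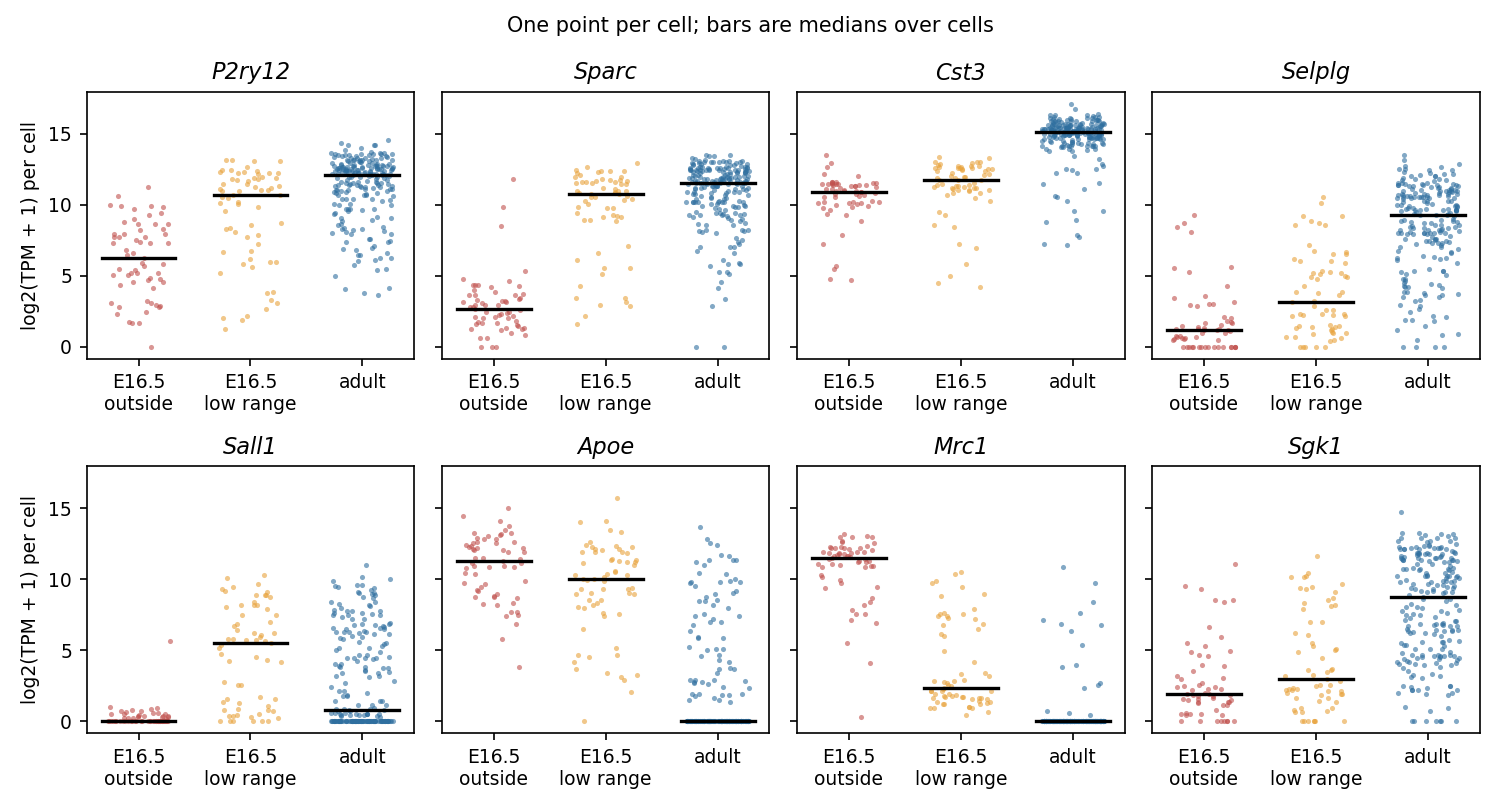
Single-cell values, as log2(TPM + 1), of 8 genes in E16.5 cells outside the low range, E16.5 cells inside it and adult cells; each point is 1 cell and bars are medians. The Sparc and P2ry12 medians of low range cells (1696 and 1615 TPM) lie far above those of the other E16.5 cells, whereas Cst3, Selplg and Sgk1 lie lower at E16.5 in both sets of cells and Apoe lies higher in both.

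The gene with the largest difference of mean log2(TPM + 1) on the higher side was Selplg, which encodes the selectin ligand PSGL-1. It had a lowest, median and highest value of 0, 2.22 and 1491 TPM at E16.5 and of 0, 609.9 and 11642 TPM in the adult, a difference of 4.19, with the adult value higher in 88.9% of pairs. It reached 100 TPM in 76.02% of adult cells and 11.9% of E16.5 cells. Sgk1, a kinase induced by glucocorticoids and cell stress, had medians of 3.89 and 435.7 TPM and a difference of 3.47. Rgs1, a regulator of G protein signalling, reached 100 TPM in 22.2% of E16.5 and 56.1% of adult cells, with a difference of 3.19. In the low range the differences were 3.61 for Selplg, 2.96 for Sgk1 and 2.83 for Rgs1, so all 3 stayed called. In adult hippocampus, thalamus and visual cortex Selplg averaged 964.3 to 1425.4 TPM and Sgk1 1720.6 to 3035.6 TPM, against 1266 and 1683 TPM in adult whole brain.

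Among adhesion molecules, 8 of 20 measured genes were higher and 4 lower in the adult (median 0.77). The tetraspanin Cd81 averaged 816.5 TPM at E16.5 and 2471.3 TPM in the adult, and its relative Cd9 483.4 and 1317 TPM. Rescaling gave 5 higher and 5 lower. In the low range only 2 of 21 were higher and 2 lower, and Cd81 (0.93) and Cd9 (0.58) were no longer called. Of 26 measured receptors for particles and debris 6 were higher and 6 lower, beside 5.20% higher and 15.9% lower among all measured genes. Trem2, a receptor for lipids and lipoproteins, averaged 344.1 TPM at E16.5 and 1190.9 TPM in the adult, although 15.5% of the adult sum came from 1 cell. Cd14, the lipopolysaccharide co-receptor, was higher by 1.79 and the apoptotic cell receptor Mertk by 1.45; among cells with 3500 to 5000 genes Cd14 was higher by 0.84, and without the cells holding both Xist and Y-linked genes Mertk by 0.87, so these calls were lost there. The scavenger receptor Stab1 (-2.11), Axl, a receptor kinase related to Mertk (-3.23), and its ligand Gas6 (-3.38) were lower. Stab1 is on the border macrophage list, so its low range value (-0.11, not called) is not read as a result. Emr1, the gene of the F4/80 antigen used in the sort, averaged 424.4 TPM at E16.5 and 85.3 TPM in the adult, a difference of -2.30, and reached 1 TPM in 94.4% and 38.9% of cells. Ptprc, which encodes CD45 (-0.36), and Itgam, which encodes CD11b (0.19), were not called.

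Receptors that sense signals differed member by member. Of 7 Fc receptor genes 3 were lower and none higher: Fcgrt, which recycles antibodies, averaged 425.3 TPM at E16.5 and 60.4 TPM in the adult, Fcer1g, the shared signalling chain, 3644 and 1675 TPM, and Fcgr4, an activating receptor, 123.3 and 41.4 TPM. In the low range 1 of the 7 was higher and 1, Fcgr4, lower: the E16.5 mean of Fcgrt was 90.4 TPM there, and neither Fcgrt (-0.57) nor Fcer1g (-0.91) was called. Among toll-like receptor genes 4 of 19 were lower and 1, Cd14, was higher, shares near those of all measured genes (15.9% and 5.20%); Tlr1, which pairs with Tlr2 to detect lipopeptides, averaged 122.2 and 11.1 TPM. Of 14 complement genes 4 were lower and 1 higher, against 4 and 3 with the 29 adult cells outside the long title run and 2 and 0 of 13 in the low range, and the C1q chains C1qa and C1qc (0.47 and 0.63) were not called. In the list of CSF1 and cytokine receptors 18 of 23 were not called, 3 were lower and 2 higher, also near the shares of all measured genes. The higher ones were Csf3r, the receptor for granulocyte colony-stimulating factor, at 78.3 TPM at E16.5 and 372.8 TPM in the adult, and Il10ra. Il10ra, a receptor chain for interleukin 10, averaged 94.3 and 289.2 TPM and was not called in the low range (0.94).

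Of 37 measured transcription factors of macrophages, 6 were higher and 5 lower, with a median ratio of 0.16 and a median difference of mean log2(TPM + 1) of -0.37, so the sign depended on the measure. With the 29 adult cells outside the long title run 11 of 36 were higher and 3 lower, and under rescaling 5 of 37 were higher and 7 lower, so the balance depended on the cells and the scaling too. Maf, a basic leucine zipper factor of macrophages, averaged 1017 TPM at E16.5 and 297.2 TPM in the adult, a difference of -1.77. Its E16.5 mean was 588.3 TPM in low range cells and 1474.6 TPM in the others, and the low range difference of -0.98 was just short of a call. Id2, an inhibitor of helix-loop-helix factors, averaged 403.6 and 3333 TPM. Irf8 (0.02) and the myeloid factor Spi1 (0.16), which are needed for microglia to form or persist, were not called, and neither was Mef2c (-0.10). In TGF-beta signalling, on which the homeostatic profile depends, 3 of 19 measured genes were higher and 1 lower (6 and 1 of 20 among cells with 3500 to 5000 genes). The 3 over all cells were the receptor Tgfbr1 (1.21, but 0.52 and not called in the low range) and the feedback inhibitors Skil (2.47) and Smad7 (1.99), named as the members behind the count.

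Genes of cell division were lower in the adult. In the mitosis list, 26 of 35 measured genes were lower and none higher (median -3.83), and in the DNA replication list 24 of 32 were lower and none higher (median -2.71), beside 15.9% lower among all measured genes. Cdk1, the kinase that drives entry into mitosis, ran from 0 through a median of 0.92 to 2825.6 TPM at E16.5 and from 0 through 0 to 98.7 TPM in the adult. It reached 100 TPM in 23.02% of E16.5 cells and in no adult cell, which allows a share of up to 1.36%. Its means were 169.4 and 1.12 TPM, a difference of -6.32. Top2a, a DNA topoisomerase of dividing cells, averaged 133.7 and 17.2 TPM (-2.89, and an uncalled -1.52 among cells with 3500 to 5000 genes), and Mki67, the proliferation antigen, 41.7 and 1.83 TPM. Stmn1, a microtubule regulator abundant in dividing cells, averaged 557.6 TPM at E16.5 and 29.3 TPM in the adult. The helicase subunit Mcm6 averaged 35.96 TPM at E16.5 and 6.03 TPM in the adult, where 75.7% of its sum came from 1 cell. Pcna, the polymerase clamp that also serves DNA repair, averaged 256.7 and 170.2 TPM and was not called.

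Counted by cell, 31 E16.5 cells (24.6%, exact Clopper-Pearson 95% interval 17.4 to 33.1%) and 10 adult cells (4.53%, 2.19 to 8.16%) held 5 or more of the 36 mitosis genes at 10 TPM or more. For the 33 replication genes the shares were 41.3% (32.6 to 50.4%) and 6.79% (3.85 to 10.95%). These intervals cover counting error over cells only. The mitosis share was 24.6% both inside and outside the low range at E16.5, so it did not follow the border macrophage genes. E12.5 whole brain cells reached 45.9%, and adult hippocampus, thalamus and visual cortex cells 3.03 to 4.55%. Against low range cells, 29 mitosis genes were lower (median -4.14) and 23 of 28 replication genes. Among cells with 3500 to 5000 genes, 8 of 26 measured mitosis genes and 16 of 29 replication genes were lower, with medians of -2.95 and -2.72 and 1 replication gene higher, so the number of called mitosis genes was smaller there. Without the 5% highest cells of each gene and age 12 of 35 mitosis genes were lower (median -1.93). The part of genes per cell in these differences was not tested beyond this.

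**Figure D3:**
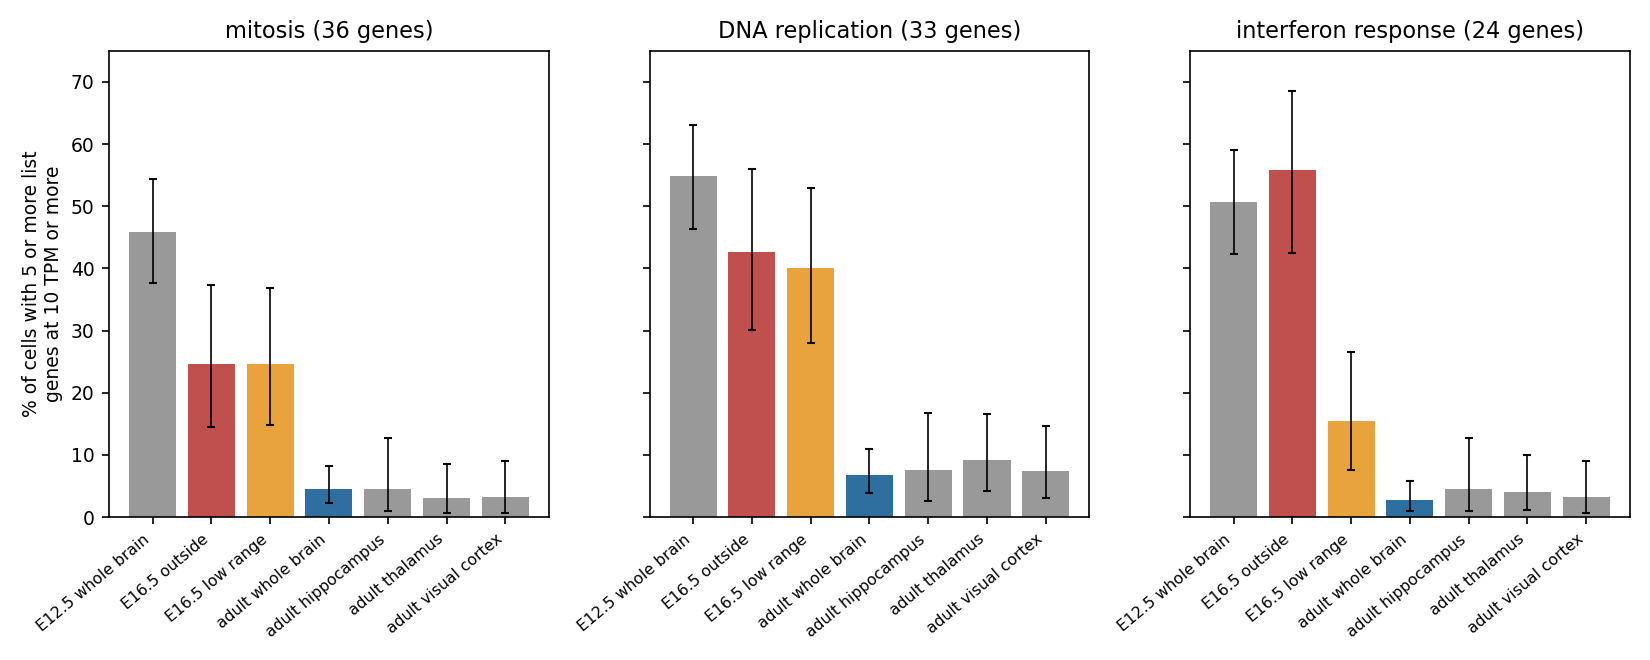
Share of cells, in %, with 5 or more genes of a list at 10 TPM or more, for mitosis, DNA replication and interferon response, in 7 sets of cells; bars start at 0 and error bars are exact 95% intervals over cells. Mitosis and replication shares are alike inside and outside the E16.5 low range, whereas the interferon share is 15.4% inside and 55.7% outside.

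The reference promoters of these genes carry known cell cycle words. Bases upstream of the annotated start of Cdk1, Mcm6 and, below, 3 other genes are shown because their windows hold matches to the word that names their group; they are reference sequence and were not measured in these cells. RefSeq windows on GRCm38.p6 ran from 250 bases before to 50 after the start and were searched on both strands. They covered 27025 genes of the RefSeq set, which was not cut down to the genes of these data. A gene with several windows was counted once, with a match in any of them, so counts of windows here are counts of genes. The cell cycle homology region, read as TTTGAA or TTCGAA, was in 25 of the 30 mitosis windows (83.3%) and in 21.7% of all windows, and the CCAAT box, read as CCAAT, in 25 of 30 (83.3%) and 41.1%. E2F words, read as TTTGGCGC, TTTCGCGC or TTTCCCGC, were in 12 of 29 replication windows (41.4%) and in 2.12% of all windows. Only 1 of 30 mitosis windows held one, that of Cdk1 shown here, so its E2F match is not typical of the mitosis list. Of the 29 replication windows 6 (20.7%) held the cell cycle homology region and 17 (58.6%) the CCAAT box. Shown are the 150 bases before the start, 5′ to 3′ on the strand of the gene, with matches in capitals (for Cdk1 all 3 words, for Mcm6 only E2F words, of which 2 overlap), for Cdk1 at chr10:69352913-69353062 and for Mcm6 at chr1:128359706-128359855, both on the minus strand.
Cdk1: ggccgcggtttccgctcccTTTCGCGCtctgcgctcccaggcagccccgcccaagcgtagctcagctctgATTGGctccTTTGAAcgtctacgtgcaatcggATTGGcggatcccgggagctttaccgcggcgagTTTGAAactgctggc
Mcm6: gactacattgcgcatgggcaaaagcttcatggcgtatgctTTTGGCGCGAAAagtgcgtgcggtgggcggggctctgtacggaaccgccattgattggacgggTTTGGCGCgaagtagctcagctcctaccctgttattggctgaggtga
A match is a description of letters and shows no binding.

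By the ratio of mean TPM, genes of protein synthesis and energy metabolism were lower in the adult in smaller steps than those of cell division. By the difference of mean log2(TPM + 1) the order was the other way. Its median was -3.455 for ribosomal protein genes, -3.02 for nuclear genes of oxidative phosphorylation and -3.08 for mitochondrially encoded genes. For mitosis it was -0.73 and for DNA replication -1.06. Of 80 measured ribosomal protein genes, 37 were lower and none higher (median -0.90), and ribosomal protein genes took a median of 2.62% of TPM per adult cell and 5.29% per E16.5 cell. Ribosomal protein genes have many processed copies in the genome, so single values are uncertain. Among translation factors, 10 of 22 were lower and 1 higher (median -0.93). Eef1g, a subunit of elongation factor 1, had medians of 195.2 TPM at E16.5 and 0 in the adult and means of 495.0 and 106.3 TPM. In glycolysis, 10 of 18 were lower and 1 higher (median -1.24). Gapdh averaged 1297 and 425.4 TPM, and Pkm, the pyruvate kinase gene, 373.4 and 66.4 TPM; the exception was Ldhb, a lactate dehydrogenase subunit, which was higher by 1.24, but by 0.55 among cells with 3500 to 5000 genes and by 0.50 in the low range, where it was not called.

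Nuclear genes of oxidative phosphorylation were lower in 17 of 40 cases and higher in none (median -0.81). Of 15 mitochondrially encoded genes 6 were lower and none higher (median -0.89), with mt-Atp6, a subunit of ATP synthase, at a mean of 14529 TPM at E16.5 and 3875 TPM in the adult. Mitochondrial genes took a median of 6.47% of TPM per E16.5 cell and 2.18% per adult cell. Atpif1, the inhibitor of ATP synthase, had medians of 277.3 and 0 TPM. Against low range cells 33 of 80 ribosomal, 11 of 40 nuclear respiratory and 10 of 15 mitochondrially encoded genes were lower, beside 14.5% of all measured genes. These groups thus differed between ages inside the low range as well. The 29 adult cells outside the long title run gave 15 of 15 mitochondrial genes lower, with a median of -2.24. Adult cells held fewer detected genes than E16.5 cells, and 47.8% of those under 10 TPM against 42.4%; among cells with 3500 to 5000 genes, 51 of 79 ribosomal, 9 of 18 glycolytic, 14 of 40 nuclear respiratory and 14 of 15 mitochondrially encoded genes (median -1.64) were lower, none of them higher. Among those cells 15.3% of all measured genes were lower. Rescaling gave 58 of 80 ribosomal, 26 of 40 nuclear respiratory and 12 of 15 mitochondrially encoded genes lower, beside 21.7% of all measured genes. Leaving out the 5% highest cells gave 68, 39 and 14, beside 28.2% of all measured genes. The part of library quality in these differences was not tested further.

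On the lower side of the ranking headed by Selplg, Apoe had the largest difference of mean log2(TPM + 1). That ranking left out mitochondrial and ribosomal protein genes, among others. Apoe encodes the lipid carrier apolipoprotein E. It had a lowest, median and highest value of 0, 1640 and 52366 TPM at E16.5 and of 0, 0 and 13125 TPM in the adult. Apoe reached 1 TPM in 99.2% of E16.5 cells and 32.6% of adult cells, and the adult value was the higher in 7.63% of pairs. Its means of 3751 and 290.3 TPM differed by -3.69, and against low range cells, which averaged 3092 TPM, by -3.41. Apoe was thus lower in the adult than in E16.5 cells on both sides of the border macrophage limit. Plin2, the coat protein of lipid droplets, averaged 436.7 TPM at E16.5 and 43.96 TPM in the adult, and the cholesterol exporter Abca1 122.2 and 34.3 TPM. Snx2, a sorting nexin of endosomes, averaged 767.7 and 85.3 TPM, and Akr1a1, an aldehyde reductase, 1022 and 250.9 TPM. In all, 8 of 20 measured genes of lipid efflux and storage were lower and none higher (median -0.96), and 13 were lower without the 5% highest cells.

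Genes known from disease-associated microglia, a state described in ageing and degeneration, were lower more often than higher, with 11 lower, 1 higher and 12 not called of 24 (median -0.79). Besides Apoe, the lower ones included the protease Ctsb, at 3193.9 TPM at E16.5 and 932.4 TPM in the adult, Igf1, a growth factor, at 189.1 and 4.13 TPM, and Axl. Spp1, which encodes osteopontin, averaged 466.2 TPM at E16.5, of which 88.3% came from 1 cell, and 0.73 TPM in the adult. Tyrobp, the signalling adaptor of Trem2, averaged 4035 and 3658 TPM, and the protease Ctsd 3318 and 3723 TPM; neither was called. In the low range 12 of 25 were lower and none higher (median -1.13), since Cd9, the gene that was higher over all cells, lost its call there.

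Lysosomal genes were mostly not called (28 of 38), with 8 lower and 2 higher, shares near the 15.9% and 5.20% of all measured genes. Rescaling gave 14 lower and leaving out the 5% highest cells 21. Ctss, a protease of antigen-presenting cells, averaged 3662 TPM at E16.5 and 7975 TPM in the adult, within 2-fold of the low range mean (0.62), and Grn, the progranulin gene, 1926 and 749.4 TPM. Among antioxidant genes 10 of 22 were lower (16 without the 5% highest cells) and 1 higher (median -1.30), with the peroxidase Prdx1 at medians of 801.7 and 14.1 TPM. Genes of iron and haem handling showed 9 lower and 1 higher of 19. Fth1, the ferritin heavy chain, was the higher one, at 1442.1 and 4970 TPM, while the exporter Slc40a1 (-2.04, but -0.37 with the 29 adult cells outside the long title run alone) and the biliverdin reductase Blvrb (-3.89) were lower. The iron group differed less in the low range, where 5 of 18 were lower and 2 higher, beside 14.5% and 4.57% of all measured genes. Its median went from -1.05 over 19 genes to -0.23 over these 18. The iron list shares a lower gene with the border macrophage list, so this change is not independent of how the range was cut. Blvrb averaged 47.2 TPM in low range cells and 672.2 TPM in the other E16.5 cells.

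Of 23 measured interferon response genes, 12 were lower in the adult and none higher (median -1.70), beside 15.9% lower among all measured genes. Ifitm3, an antiviral membrane protein, averaged 344.2 TPM at E16.5 and 18.9 TPM in the adult, and its neighbour Ifitm2 309.5 and 2.02 TPM; these close paralogs may share reads. By cell, 34.9% of E16.5 cells (26.7 to 43.9%) and 2.72% of adult cells (1.003 to 5.82%) held 5 or more of the 24 genes at 10 TPM or more. The E16.5 share was 15.4% in the low range (7.63 to 26.5%) and 55.7% outside it (42.5 to 68.5%), and the adult share was 1.04% in the long title run and 13.8% in the other 29 cells. Against low range cells 13 of 24 genes were still lower. The interferon-stimulated response element, its core read as AAANNGAAA on either strand, was in 12 of 17 windows of this list (70.6%) and in 12.1% of all windows. Xaf1, a gene induced by interferon, averaged 71.4 TPM at E16.5 and 31.2 TPM in the adult, with 36.3% of the adult sum from 1 cell; its call was lost in the low range. The 150 bases before its start, on the plus strand at chr11:72301479-72301628, are shown with the match in capitals.
Xaf1: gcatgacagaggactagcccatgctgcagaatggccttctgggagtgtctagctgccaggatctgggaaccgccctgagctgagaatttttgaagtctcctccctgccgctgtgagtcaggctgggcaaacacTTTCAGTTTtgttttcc

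Class II antigen presentation genes were in part higher in the adult, at low levels, and class I genes were mostly not called. Of 6 measured class II genes 4 were higher and none lower, and in the low range 2 were higher. Cd74, the class II invariant chain, averaged 6.12 TPM at E16.5 and 39.7 TPM in the adult and reached 100 TPM in 6.34% of adult cells. The peptide loading subunit H2-DMb1 averaged 14.9 and 119.1 TPM. Of 18 class I genes 2 were higher, 2 lower and 14 not called; the higher ones were H2-K1, at 808.7 TPM at E16.5 and 2249 TPM in the adult, and H2-D1, at 586.5 and 1236.5 TPM, polymorphic genes that resemble each other, so their reads may be shared. Against the 29 adult cells outside the long title run neither was called, with differences of 0.61 and 0.77. B2m, the common light chain, averaged 3126.6 TPM at E16.5, differed by -0.43 and was not called. Among chemokine genes 6 of 21 were lower and 2 higher, but 5 were lower and 6 higher with the 29 adult cells outside the long title run, and 3 of 19 were lower and 2 higher in the low range. Some of these genes, Pf4 among them, are also on the border macrophage list, so the low range count is not read as a result. Ccl4, a chemokine of activated macrophages, had medians of 5.56 TPM at E16.5 and 1018 TPM in the adult, with a difference of 2.45. Ccl2, which draws monocytes, averaged 1761 and 623.9 TPM (-1.50) and was no longer called in the low range (-0.82) or with the 29 adult cells outside the long title run alone (-0.94).

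Genes that respond within minutes to stimulation were higher in the adult. Of 21 measured immediate early genes 12 were higher and 1 lower (median 1.63), and against low range cells 16 were higher and none lower (median 1.77). Among all measured genes 5.20% were higher and 15.9% lower, and 4.57% and 14.5% against low range cells. Egr1, a zinc finger factor, averaged 804.7 TPM at E16.5 and 4394 TPM in the adult, and Fos, a subunit of AP-1, 1374 and 3432 TPM; the difference of Fos was 1.32, but 0.54 with the 29 adult cells outside the long title run alone. Jun, another AP-1 subunit, ran from 0 through 90.7 to 881.4 TPM at E16.5 and from 0 through 570.7 to 4638 TPM in the adult, with the adult value higher in 84.03% of pairs. Atf3, a stress-induced repressor, had medians of 5.12 and 753.3 TPM. E16.5 cells were not silent for this list: 70.6% of them (61.9 to 78.4%) and 88.2% of adult cells (83.2 to 92.2%) held 5 or more of the 25 genes at 100 TPM or more.

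Of 21 cytokine and NF-kB genes 10 were higher and none lower (median 1.30). Nfkbia, which encodes the inhibitor of NF-kB that NF-kB itself induces, ran from 0 through 21.8 to 2260 TPM at E16.5 and from 0 through 762.2 to 13128 TPM in the adult, a difference of 3.22. Cd83, a surface protein of activated antigen-presenting cells, averaged 162.5 and 822.9 TPM, and the cytokine gene Tnf 9.66 and 130.3 TPM. In the heat shock and chaperone list 11 of 24 were higher and 4 lower (median 1.04), and 12 and 1 with the 29 adult cells outside the long title run. Without the 5% highest cells of each gene and age 10 were higher and 7 lower. The median difference of mean log2(TPM + 1) was 0.005. By cell, 72.4% of adult cells and 69.8% of E16.5 cells held 5 or more of the 25 genes at 100 TPM or more. Hspa1a and Hspa1b, near-identical copies of the inducible HSP70 gene whose values are uncertain singly, averaged 1.91 and 0.82 TPM at E16.5 and 281.9 and 212.1 TPM in the adult. Hspa1a reached 1 TPM in 66.1% of adult cells and 3.97% of E16.5 cells, whereas the constitutive Hspa8 was abundant at both ages (2925.3 and 7721 TPM).

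Stress genes of the endoplasmic reticulum and of glucocorticoid signalling were in part higher too. Of 20 genes of the unfolded protein response 6 were higher and 3 lower, with a median ratio of 0.94 but a median difference of mean log2(TPM + 1) of -0.19. The counts were 11 higher and 1 lower of 21 with the 29 adult cells outside the long title run, and 5 and 5 of 19 under rescaling. Herpud1, a factor of protein degradation at the endoplasmic reticulum, had medians of 61.9 TPM at E16.5 and 1419.6 TPM in the adult, and the chaperone Hspa5 of 243.5 and 776.8 TPM. Canx and Hsp90b1, constitutive chaperones of the same compartment, differed by -0.07 and -0.01 and were not called. In the glucocorticoid response list 4 of 15 were higher and none lower, and 7 in the low range. Glul, glutamine synthetase, averaged 257.2 and 790.2 TPM, while Tsc22d3, a glucocorticoid-induced repressor, was called in the low range (2.26) and not over all cells (0.84). Of 10 clock genes 2 were higher and none lower. Ciart, a repressor of the clock, averaged 2.22 TPM at E16.5 and 199.5 TPM in the adult with a median of 0 at both ages, and it reached 1 TPM in 23.98% of adult and 5.56% of E16.5 cells.

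kB words, read as GGGANTTTC or GGAANTTCC, were in 6 of 18 windows of the cytokine and NF-kB list (33.3%) and in 2.24% of all windows. Heat shock elements, read as GAANNTTC or TTCNNGAA, were in 13 of 19 windows of their list (68.4%) and in 16.97% of all windows, and the cAMP response element TGACGTCA in 3 of 20 immediate early windows (15%) and in 2.03%. The 150 bases before the starts of Nfkbia, at chr12:55492648-55492797, and Hspa1a, at chr17:34972157-34972306, both on the minus strand, are shown with matches to the word of their own list in capitals; 2 of the 3 kB matches of Nfkbia overlap.
Nfkbia: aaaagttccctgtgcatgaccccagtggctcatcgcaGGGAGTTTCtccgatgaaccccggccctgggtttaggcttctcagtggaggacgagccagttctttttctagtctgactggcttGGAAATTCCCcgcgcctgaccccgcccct
Hspa1a: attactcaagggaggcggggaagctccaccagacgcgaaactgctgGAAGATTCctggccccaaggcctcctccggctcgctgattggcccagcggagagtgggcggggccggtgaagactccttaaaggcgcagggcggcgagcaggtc

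Adult regional cells were set beside these values as further single samples. For many genes of the comparison the 4 adult groups lay together: P2ry12 averaged 4881 TPM in whole brain and 4491 to 7074 TPM in the regions, and Egr1 4394 and 3124 to 4230 TPM. Other genes were higher in adult whole brain than in each region. Junb, an AP-1 subunit, averaged 483.4 TPM in whole brain, 40.2 TPM in hippocampus, 169.1 TPM in thalamus and 26.2 TPM in visual cortex, and 34.3 TPM in E16.5 whole brain. Nfkbia averaged 1722 TPM in adult whole brain, 167.9 to 428.8 TPM in the regions and 184.1 TPM at E16.5. Cd83 averaged 822.9 TPM beside 33.2 to 172.5 TPM, Id2 3333 TPM beside 843.3 to 1192.8 TPM, and Fth1 4970 TPM beside 461.4 to 2575.5 TPM. Junb, Nfkbia and Cd83 in hippocampus and visual cortex thus lay near or below their E16.5 whole brain means rather than near the adult whole brain ones. Within adult whole brain, Nfkbia averaged 1863 TPM in the long title run and 785.5 TPM in the other 29 cells, and Junb 515.3 and 272.1 TPM. What sets whole brain apart from the regions, such as preparation, was not tested.

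**Figure D4:**
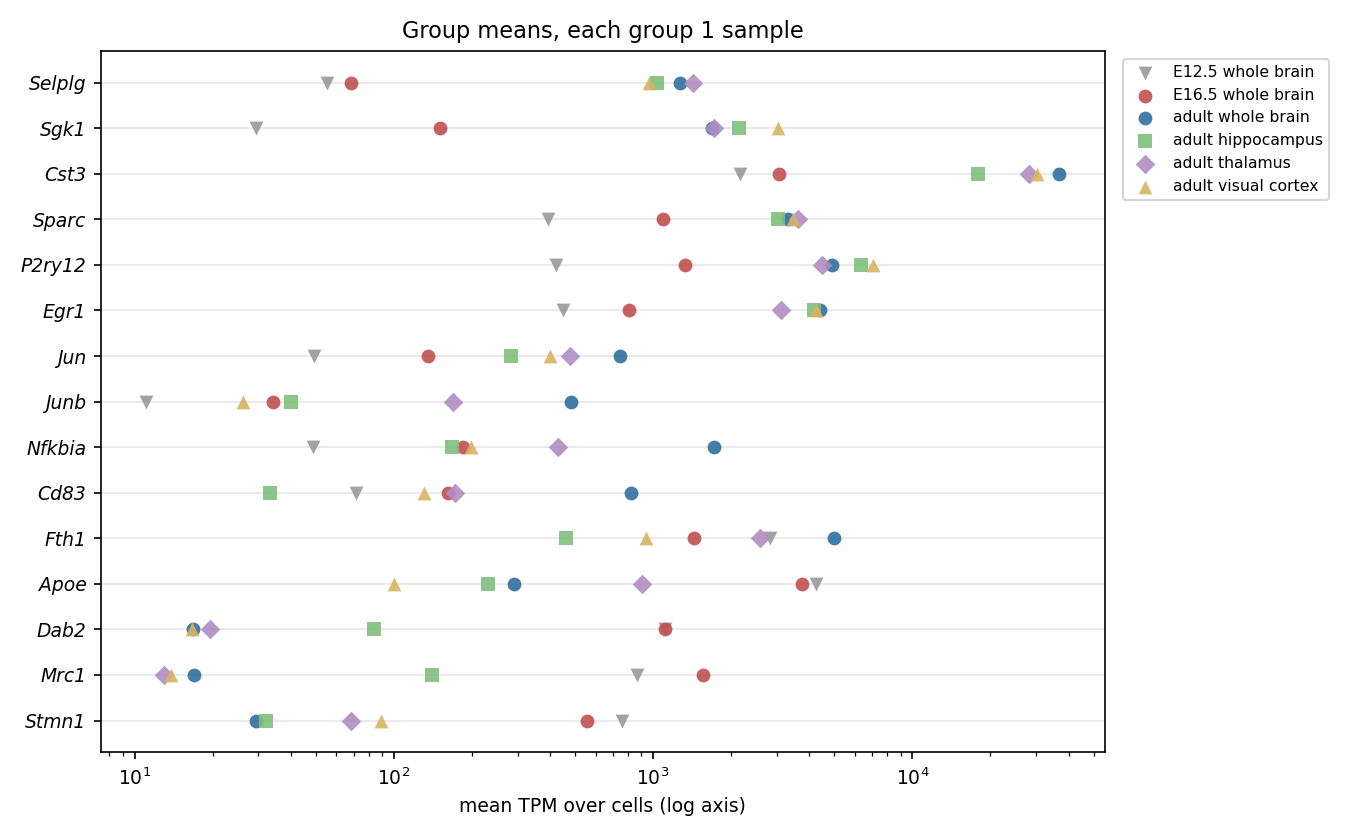
Mean TPM over cells, on a log axis, of 15 genes in embryonic whole brain at both ages, adult whole brain and adult hippocampus, thalamus and visual cortex, each group 1 sample without error. For Selplg, Sgk1, Sparc and P2ry12 the 4 adult groups lie above both embryonic groups; for Junb, Nfkbia and Cd83 adult whole brain lies above all other groups.

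**Figure D5:**
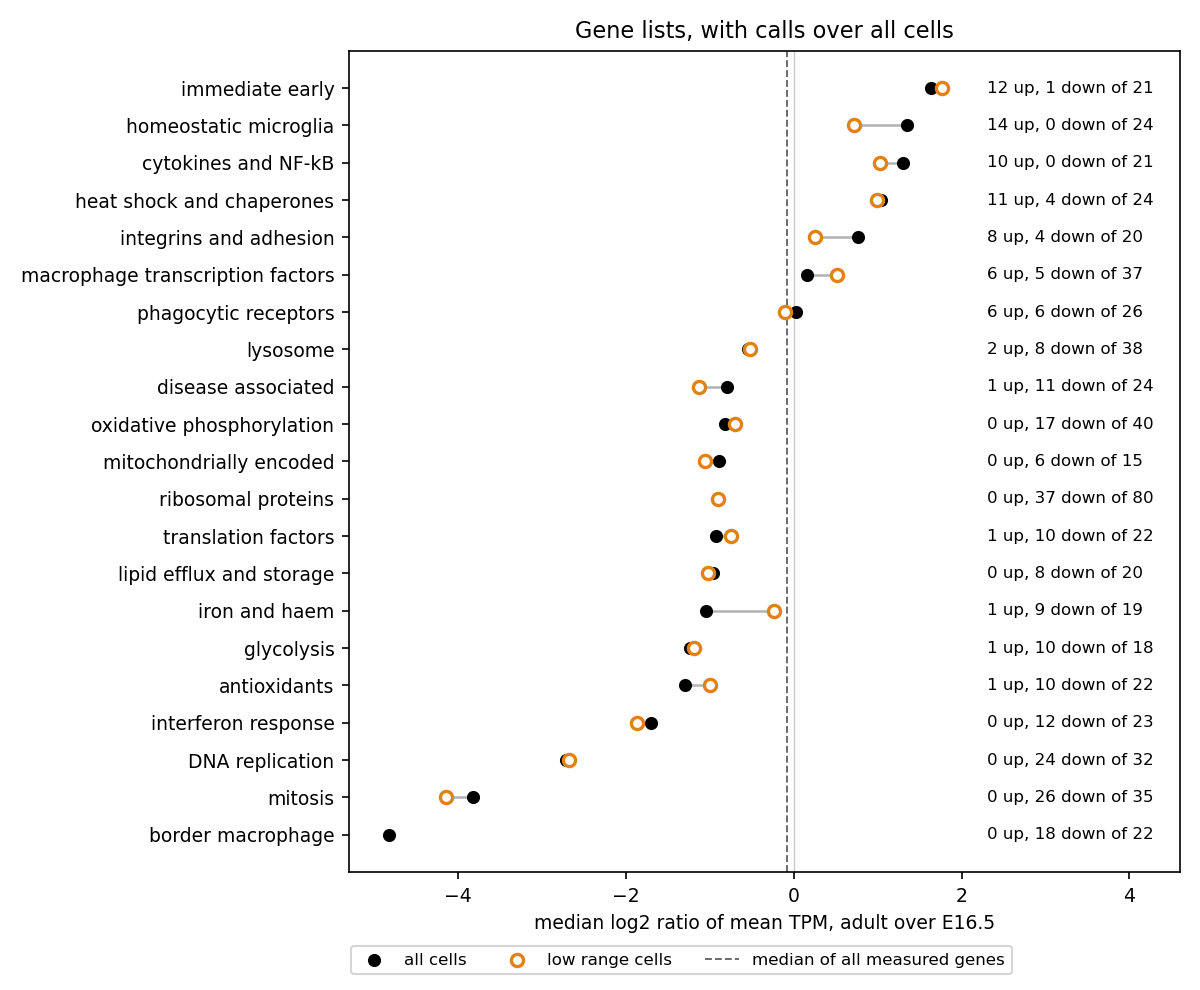
Median log2 ratio of mean TPM, adult over E16.5, of 21 gene lists over all cells (filled) and against low range E16.5 cells (open), with the median of all measured genes as a dashed line and the numbers of called genes at the right. The homeostatic list goes from 1.35 to 0.72 and the iron list from -1.05 to -0.23 between filled and open points, while immediate early genes go from 1.63 to 1.77; the border macrophage list has no open point because it sets the range.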

How the data were processed

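Single cells of brain macrophages were sorted, captured on Fluidigm C1 chips and made into libraries with Nextera XT, per the labels' protocols. The deposited table holds TPM per gene and cell as made by the authors, and the submitters' processing notes list RSEM 1.2.19, Seurat and the build GRCm38. No aligner or annotation was named in them. TPM keeps no depth, so sequencing depth is unknown and no count model was used.

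Cells were matched to their samples by title, and 0 columns were left unmapped. Means of TPM, log2 ratios with 1 TPM added, differences of mean log2(TPM + 1), shares of cells and exact Clopper-Pearson 95% intervals were computed with Python 3.11.15, numpy 2.4.6, pandas 2.3.3 and scipy 1.17.1, and figures with matplotlib 3.10.9. Intervals, and upper limits of 3 counts where a share was 0, cover counting error over cells only. Each age was 1 sample, so no test was run. The ratio and call steps were checked on draws of the real E16.5 cells in which well detected genes were multiplied by known folds.

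Members and gene lists were chosen with earlier results of these data known. The ranking of called genes left out mitochondrial, ribosomal protein, predicted, clone-named and Y-linked genes, pseudogenes, Xist and Tsix. Named genes are the 12 ranked genes with the largest difference of mean log2(TPM + 1) in each direction (mean of 50 TPM or more, 1 TPM in 25% of cells), up to 8 members of each list by mean TPM, and the sort and range genes. Axl, Folr2, Mcm6, Mertk, Mki67, Olfml3, Sall1, Siglech, Smad7, Spi1, Spp1, Tmem119, Tnf and Xaf1 are list members outside that rule, and the low range ranking in the closing section is also outside it; they were chosen after their values were seen. Alternatives were other pseudocounts, filters, thresholds, scalings and sets of cells; the limits of 3500 to 5000 genes and the removal of cells with Xist and Y-linked genes were chosen after seeing the data. A few list members are not reported here by name.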

Additional observations from a re-analysis of the deposited data

How the results depend on the processing

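No paired analysis was possible because the cells carry no replicate number shared between the ages, and leaving out 1 sample of an age leaves none. Over all cells 649 of 12490 measured genes were higher and 1982 lower in the adult. A minimum mean of 50 TPM gave 362 higher (9.49% of measured genes) and 935 lower (24.5%), a minimum difference of mean log2(TPM + 1) of 1 gave 1.91% higher and 8.71% lower, and the ratio alone gave 22.7% higher and 27.5% lower, so that 45.2% of called genes were higher. Median-ratio rescaling gave 409 higher (3.38%), the 29 adult cells outside the long title run gave 974 higher (8.32%), and cells with 3500 to 5000 genes gave 10.1% higher. Leaving out the 5% highest cells of each gene and age gave 3518 lower (28.2%), and 12.96% of called genes were then higher. The other settings stayed within 1.5 times of both counts. Among lists with a median beyond 1.5-fold, it changed sign for the unfolded protein response by the difference of mean log2(TPM + 1) (-0.19), and for iron and haem in the low range over the genes measured among all cells (0.18). For other sets of cells and scalings, the list medians of this section are also over the genes measured among all cells. Thinly measured lists of other cell types also changed sign: B cell at a minimum of 1 TPM (0.36), dendritic cell with the 29 adult cells (-1.57) and with 3500 to 5000 genes (-0.86), neuron without a filter (0.0032) and with 3500 to 5000 genes (2.05), and neural progenitor at a minimum of 50 TPM (4.14). Over the genes measured with the 29 adult cells themselves, the dendritic cell median was 3.275 and kept its sign. Medians nearer 0 changed sign more often, among them complement (0.49), trophic and guidance (0.14) and fetal and imprinted genes (-1.07) with the 29 adult cells, toll-like receptors (0.42) and chemokines (-0.67) with 3500 to 5000 genes, and macrophage transcription factors under rescaling (-0.15). Pax6 changed sign with the 29 adult cells (-2.22) and with 3500 to 5000 genes (-0.0075). Of 95 named called genes, 18 lost their call in the low range, 8 with the 29 adult cells, 7 at a minimum difference of mean log2(TPM + 1) of 1 and 6 under rescaling (Ctss, H2-D1, Il10ra, Ldhb, P2ry13 and Tgfbr1). Those 18 include F13a1 and Lyve1, which set the range, and Stab1 of their list. A minimum mean of 50 TPM, the removal of genes over 5000 TPM and cells with 3500 to 5000 genes lost 5 each, the removal of cells holding both Xist and Y-linked genes lost 3, and each other setting lost at most 1. The cause of these changes was not tested. TPM gives no depth, so no limit of detection per gene can be stated.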

Other observations

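Against low range E16.5 cells alone, called genes were ranked with the same kinds of genes left out. The largest difference of mean log2(TPM + 1) on the higher side was that of Pmp22, a peripheral myelin and membrane protein. Pmp22 does not rank among the first 12 over all cells. It averaged 698.3 TPM in the adult, 21.8 TPM in low range E16.5 cells and 390.1 TPM in the other E16.5 cells, so its difference was 4.94 in the low range and 1.80 over all cells. In adult hippocampus, thalamus and visual cortex Pmp22 averaged 576.8 to 675.0 TPM. Ccrl2, a non-signalling chemokine receptor, averaged 5.91 TPM at E16.5 and 417.7 TPM in the adult and reached 1 TPM in 7.94% and 63.3% of cells; the 3 adult regions averaged 34.98 to 107.5 TPM. Btg2, an antiproliferative immediate early gene, had medians of 267.8 TPM at E16.5 and 2810.8 TPM in the adult, and the regions averaged 3655 to 4849 TPM. Genes lower in the adult in this ranking included Gnb2l1, the ribosomal scaffold RACK1, with medians of 661.8 and 4.07 TPM, Hnrnpf, a splicing regulator, with 148.8 and 0 TPM, and Atp5j2, an ATP synthase subunit, with 180.5 and 0 TPM. With the 29 adult cells outside the long title run, against all E16.5 cells, Hnrnpf differed by -0.79 and Atp5j2 by -0.50, and neither was called.

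Pax6, a transcription factor of neural progenitors, was listed at 625553 TPM in 1 adult cell, which gave 88.1% of its adult sum. Its medians were 47.3 TPM at E16.5 and 96.6 TPM in the adult, it reached 1 TPM in 96.8% and 97.7% of cells, and its mean was 15812 TPM in visual cortex.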
